A study of Mus musculus with 6 samples.

Results

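The vessel genes described here are 39 genes that mark the cells of blood and lymphatic vessels, taken from the 56691 genes counted in bulk RNA-seq of the developing mouse palate. They are a fixed list of gene names, drawn up with earlier results of these data known, and fall into 21 pan-endothelial, 4 arterial, 2 venous, 3 lymphatic, 2 tip cell and 7 mural genes. All 39 symbols matched 1 gene identifier each, and all 39 passed the filter of at least 10 counts in at least 3 libraries, as 15673 genes did. The lowest of their counts in any library was 13, for Esm1. The samples were microdissected palatal shelves of C57BL/6J mice at E14.0, without any genetic change or treatment. The anterior 1/3 of the shelves gave 3 libraries and the posterior 1/3 gave 3 others. The study describes the bulk samples as biologically independent. Whether a library came from 1 embryo or from a pool, and whether an anterior and a posterior library shared embryos, is not given in the sources used here.

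Vessels are lined by endothelial cells, which share a core of junction proteins, growth factor receptors and transcription factors and which become arterial, venous or lymphatic under Notch, Nr2f2 and Prox1. Sprouts grow behind a leading tip cell. Mural cells surround the endothelium, as pericytes on capillaries and as contractile smooth muscle cells on larger vessels. In the growing palate these cells lie within shelves made up mostly of cranial neural crest-derived mesenchyme and covered by epithelium.

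The libraries held between 11378736 and 15172733 counts on genes, at which 3 counts, the limit that a count of 0 allows, correspond to 0.206 to 0.260 counts per 1000000 counts (CPM). Posterior replicates 2 and 3 stood apart from the other 4 libraries. Their share of multimapping reads was 6.12% and 5.94%, where the others had 8.45% to 8.77%, and their share of mitochondrial counts was 0.973% and 1.14%, where the others had 2.70% to 2.97%. Both are posterior libraries, so this split and the region cannot be fully told apart. A fit with a term for it, called the library-group term below, takes the region from posterior replicate 1 and the anterior libraries alone. The marker lists of other cell types also differed between the libraries. The summed level of 10 skeletal muscle markers was 11.8 to 15.9 CPM in the anterior and 612 to 1071 CPM in the posterior palate, with all 10 called higher in the posterior palate and none at a count of 0 in any library. That of 9 markers of palatal mesenchyme was 8962 to 9617 CPM in the anterior and 11968 to 18440 CPM in the posterior palate, with 3 called higher in the posterior and 2 in the anterior palate. That of 8 epithelial markers was 1599 to 1699 CPM in the anterior and 1115 to 1863 CPM in the posterior palate, with 1 called higher in the anterior palate.

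Most vessel genes did not pass the test between the anterior and posterior palate, and 4 of the 5 that did were genes of mural cells. Of the 39 genes, 5 (12.8%) were called, that is, the quasi-likelihood test of edgeR gave an adjusted p-value under 0.05, against 7.46% of all genes tested. Flt4, Acta2 and Tagln were the 3 higher in the posterior palate, where 4.87% of all genes were called. Rgs5 and Kcnj8 were the 2 higher in the anterior palate, where 2.59% of all genes were called. The anterior and posterior libraries did not overlap for 11 of the 39 genes (28.2%), close to the 28.0% of all genes tested. Of these 11, 5 were higher in the posterior palate (Nr2f2, Flt4, Myh11, Acta2 and Tagln) and 6 in the anterior palate (Esam, Plvap, Aplnr, Apln, Rgs5 and Kcnj8). The median log2 fold change, given throughout as posterior over anterior palate, was 0.09 over the 39 genes and -0.00 over all genes tested. SE stands for the standard error of a log2 fold change. In a bulk sample, fewer cells of a type and less RNA per cell cannot be told apart.

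**Figure D1:**
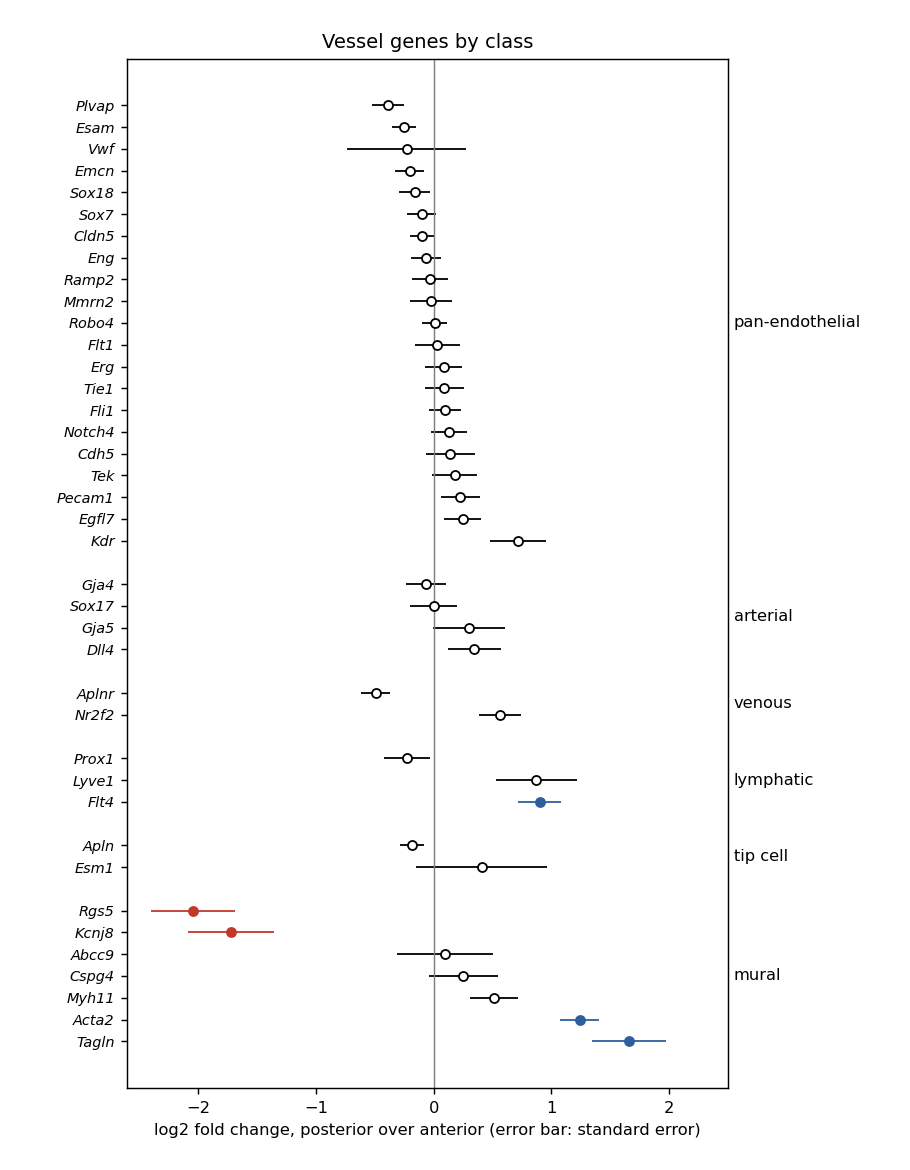
Log2 fold change (posterior over anterior palate, horizontal axis) of the 39 vessel genes, grouped by class. Points are edgeR estimates from 3 anterior and 3 posterior libraries, bars are standard errors, and filled points are the 5 genes called (blue, higher in the posterior palate; red, higher in the anterior palate). The 21 pan-endothelial genes lie between -0.39 and 0.72, and the 7 mural genes between -2.04 and 1.66.

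Per kilobase of merged exon length, the most abundant endothelial genes over the 6 libraries were Cdh5, which encodes VE-cadherin of endothelial junctions (mean 34.2 CPM per kb), the apelin receptor gene Aplnr (26.4 CPM per kb), Plvap, which encodes a protein of the diaphragms of fenestrated vessels (24.3 CPM per kb), and the tight junction gene Cldn5 (23.8 CPM per kb). Among mural genes Acta2 (40.8 CPM per kb) and Tagln (34.3 CPM per kb) were the most abundant. Vwf (0.965 CPM per kb) and Sox17 (1.02 CPM per kb) were at the low end.

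None of the 21 pan-endothelial genes passed the quasi-likelihood test of edgeR with all libraries. An unadjusted p under 0.05 was found for 3 of them (Kdr, Plvap and Esam), beside 3946 of all 15673 genes tested. Kdr was also called by DESeq2. Without posterior replicate 1 the edgeR test called 5 of the 21 genes, in a fit that called 7119 genes in all. The summed level of the list was 843, 876 and 933 CPM in anterior replicates 1, 2 and 3 and 766, 981 and 1077 CPM in posterior replicates 1, 2 and 3. The mean was 884 ± 45.2 CPM for the anterior and 941 ± 159 CPM for the posterior palate (SD, n = 3 each). The posterior libraries thus lay on both sides of the anterior ones, with replicate 1 the lowest of all 6. The median log2 fold change of the list was 0.01, -0.04 when counts were scaled by library size only and -0.15 with the library-group term. Log2 fold changes were positive for 11 genes and negative for 10. Those of the transcription factor genes Fli1 (0.10), Erg (0.09), Sox7 (-0.10) and Sox18 (-0.16) were small beside those of the mural genes called. So were those of the angiopoietin receptor gene Tek (0.18), its relative Tie1 (0.09) and Cldn5 (-0.10). Without posterior replicate 1, edgeR called Tek (0.38, adjusted p = 0.0131) and Tie1 (0.26, adjusted p = 0.0475) as higher in the posterior palate. With the library-group term the log2 fold change was -0.32 for Tek and -0.30 for Tie1. For the genes of the list whose adjusted p-values from the edgeR fit with all libraries are not given singly below, these lay between 0.33 and 0.969.

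Cdh5 had 131, 139 and 140 CPM in anterior replicates 1, 2 and 3 and 99.3, 173 and 180 CPM in posterior replicates 1, 2 and 3. Posterior replicate 1 was below and posterior replicates 2 and 3 were above every anterior library. The log2 fold change of 0.14 (SE 0.21, adjusted p = 0.684) averages over this split. It was -0.46 with the library-group term (adjusted p = 0.01) and 0.37 without posterior replicate 1 (adjusted p = 0.00151), and both fits called it, in opposite directions.

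Kdr, which encodes the main endothelial receptor for Vegfa, had 72.1, 72.5 and 76.7 CPM in anterior replicates 1, 2 and 3 and 75.4, 137 and 152 CPM in posterior replicates 1, 2 and 3. Posterior replicate 1 lay within the anterior range and the other posterior libraries far above it. Kdr is named because its log2 fold change was the largest of the list (0.72, SE 0.24), a choice made after its values were seen. Its adjusted p was 0.119 by edgeR's quasi-likelihood test, 0.0338 by DESeq2 and 3.77e-05 without posterior replicate 1, and its log2 fold change was 0.03 with the library-group term. Pecam1, the gene of the adhesion molecule CD31, had 80.6, 75.6 and 91.9 CPM in the anterior and 76.2, 95.9 and 118 CPM in the posterior libraries. The regions overlapped, and its log2 fold change of 0.23 (SE 0.17) had an adjusted p of 0.409. Without posterior replicate 1 the adjusted p of Pecam1 was 0.0236, and with the library-group term its log2 fold change was -0.12.

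Plvap and Esam were the 2 pan-endothelial genes whose libraries did not overlap between the regions (9.52% of the 21, beside 28.0% of all genes tested). Both were higher in each anterior library. Plvap had 46.2, 54.5 and 63.7 CPM in the anterior and 39.8, 40.9 and 45.1 CPM in the posterior libraries. Anterior replicate 1 and posterior replicate 3 nearly met. Plvap had a log2 fold change of -0.39 (SE 0.13, adjusted p = 0.133). Esam, which encodes a junctional adhesion molecule, had 35.8, 34.1 and 35.8 CPM in the anterior and 27.3, 30.1 and 31.5 CPM in the posterior libraries. Its log2 fold change of -0.25 (SE 0.10) was small but similar in all libraries, and its adjusted p was 0.177. Neither gene was called by DESeq2, where the adjusted p was 0.103 for Plvap and 0.23 for Esam.

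**Figure D2:**
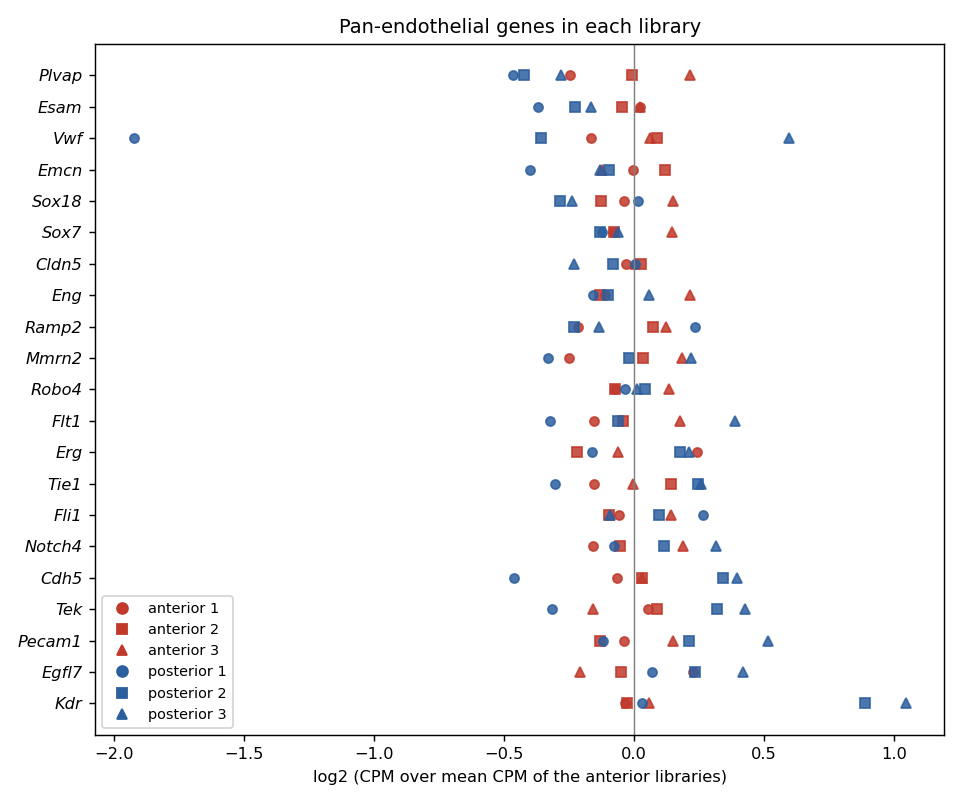
Level of the 21 pan-endothelial genes in each library, as the log2 ratio of its CPM to the mean CPM of the 3 anterior libraries (horizontal axis, 1 row per gene). Red symbols are anterior and blue symbols posterior libraries, with a shape per replicate number. Posterior replicate 1 (blue circle) lies to the left for Vwf, Cdh5, Emcn and Tek, whereas posterior replicates 2 and 3 lie to the right for Kdr.

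The pan-endothelial genes differed among the posterior libraries in an order that went with their length. The log2 difference between the mean of posterior replicates 2 and 3 and posterior replicate 1 was positive for 17 of the 21 genes. Across these genes it correlated with the log2 of the merged exon length (Pearson's r = 0.726, Spearman's rho = 0.732). Across all 39 vessel genes r was 0.597 and rho 0.552, and across the 15520 tested genes with a length r was 0.448 and rho 0.490. These are descriptions across genes of the same 3 libraries, and genes are not independent replicates. The short genes Cldn5 (1416 bases, -0.16) and Sox18 (1620 bases, -0.27) were lower in posterior replicates 2 and 3 than in replicate 1. Cdh5 (4203 bases) was higher there by 0.83, Kdr (9030 bases) by 0.93 and the von Willebrand factor gene Vwf (16064 bases) by 1.93 on the log2 scale. Vwf had 15.0, 17.8 and 17.5 CPM in the anterior and 4.42, 13.1 and 25.3 CPM in the posterior libraries. The posterior libraries lay far below, just below and above the anterior ones, and the log2 fold change was -0.23 (SE 0.51, adjusted p = 0.792). With the library-group term, which leaves posterior replicate 1 to set the difference, the log2 fold change of Vwf was -1.92 (adjusted p = 0.0226). The part of transcript length in the comparison of the regions was not tested.

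**Figure D3:**
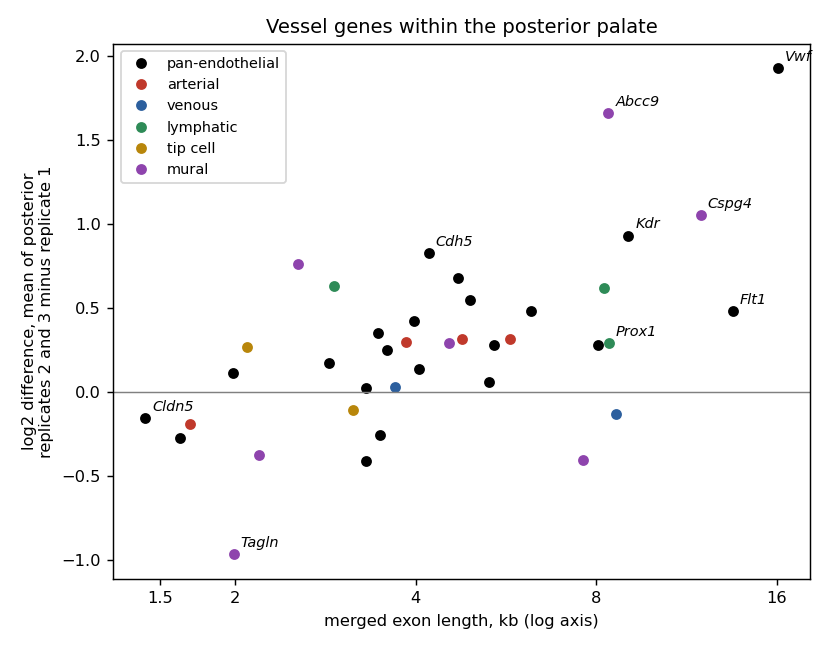
Vessel genes within the posterior palate. The horizontal axis is the merged exon length (kb, log axis), the vertical axis the log2 difference between the mean of posterior replicates 2 and 3 and posterior replicate 1, and each point is 1 of the 39 genes, coloured by class. Of the 39 genes 29 lie above 0, with Vwf (1.93) and Abcc9 (1.66) the highest and Tagln (-0.97) the lowest.

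The summed level of red cell genes also differed between posterior replicate 1 and the other posterior libraries. The summed level of 8 erythroid markers, which included adult globin genes, was 739 to 868 CPM in the anterior libraries, 990 CPM in posterior replicate 1, and 498 and 558 CPM in posterior replicates 2 and 3, and none of the 7 tested was called. Within the posterior palate this sum was thus highest in replicate 1, where the summed pan-endothelial level was lowest. Of the 21 pan-endothelial genes 17 were lower in replicate 1 than in the mean of replicates 2 and 3. Ramp2, Fli1, Sox18 and Cldn5 were higher in replicate 1. The globin genes among the markers are short, at 667 to 812 bases of merged exon length. The parts of blood content and of gene length in these differences were not tested. Of 17 further endothelial genes that were tested, 1 was called (5.88%, beside 7.46% of all genes tested), and their median log2 fold change was -0.03. The gene called was Gata2, a transcription factor gene also active in epithelium and blood cells. Gata2 had 20.6, 15.0 and 16.4 CPM in the anterior and 7.26, 8.53 and 5.83 CPM in the posterior libraries. Every anterior library was far above every posterior one, with a log2 fold change of -1.27 (SE 0.20, adjusted p = 0.00848).

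The arterial genes did not pass the test. Their median log2 fold change was 0.15, and the libraries overlapped for all 4. The median was -0.068 without posterior replicate 3, 0.30 without anterior replicate 3 and 0.024 without anterior replicate 1. Gja4, the gene of connexin 37, had 9.26, 9.09 and 11.9 CPM in the anterior and 10.6, 8.53 and 9.87 CPM in the posterior libraries (log2 fold change -0.06, SE 0.17, adjusted p = 0.829). Gja5, the gene of connexin 40, had 12.1, 15.0 and 20.9 CPM in the anterior and 16.2, 14.2 and 28.6 CPM in the posterior libraries (log2 fold change 0.30, SE 0.31, adjusted p = 0.549). Both connexin genes were highest within a region in 1 library of 3, and Gja5 varied more within each region than between them. The Notch ligand gene Dll4 had a log2 fold change of 0.34 (adjusted p = 0.362), and the transcription factor gene Sox17 one of -0.00 (adjusted p = 0.999). Notch4, an endothelial Notch receptor gene of the pan-endothelial list, was also close to 0 (0.13, adjusted p = 0.609).

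Among 11 further arterial and venous genes, 2 were called (18.2%, beside 7.46% of all genes tested), in opposite directions. Hey1, a transcriptional repressor gene induced by Notch, had 51.7, 54.4 and 56.2 CPM in the anterior and 18.1, 23.7 and 21.3 CPM in the posterior libraries, and fell by 1.36 on the log2 scale (SE 0.12, adjusted p = 0.000897). Efnb2, which encodes ephrin-B2, had 92.3, 99.5 and 128 CPM in the anterior and 267, 207 and 251 CPM in the posterior libraries (log2 fold change 1.18, SE 0.16, adjusted p = 0.00455). Neither gene's libraries overlapped, and both genes are also expressed in mesenchyme, whose marker levels differed between the regions as given above. The study lists Efnb2 as a marker of its posterior mesenchymal subpopulation and, by in situ hybridization, found it mainly in the posterior palate. How much of these bulk differences came from mesenchyme was not tested here. The venous receptor gene Ephb4, the partner of ephrin-B2, had 262 CPM in anterior and 292 CPM in posterior libraries on average (log2 fold change 0.16, adjusted p = 0.385).

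Neither of the 2 venous genes passed the quasi-likelihood test of edgeR, and their log2 fold changes were of opposite sign. Nr2f2, which encodes COUP-TFII and specifies venous identity, had 42.3, 53.1 and 70.8 CPM in the anterior and 87.0, 79.6 and 79.4 CPM in the posterior libraries. All posterior libraries were above all anterior ones, which spread widely. Its log2 fold change was 0.57 (SE 0.18, adjusted p = 0.108), and it is also expressed in mesenchymal cells. Aplnr had 114, 127 and 101 CPM in the anterior and 79.7, 91.0 and 72.7 CPM in the posterior libraries. Every anterior library was above every posterior one (log2 fold change -0.49, SE 0.13, adjusted p = 0.0592). DESeq2 called both, with an adjusted p of 0.042 for Nr2f2 and 0.0121 for Aplnr. Without posterior replicate 1 both were called as well, and Nr2f2 also without anterior replicate 3 (log2 fold change 0.78, adjusted p = 0.0359). Set against 1000 CPM of the summed pan-endothelial list, Aplnr was at 130 ± 19.2 in anterior and 88.1 ± 18.7 in posterior libraries (SD, n = 3 each), without overlap. On the same scale Nr2f2 was at 62.2 ± 13.0 in anterior and 89.5 ± 21.1 in posterior libraries, and there the regions overlapped.

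Apln, which encodes the ligand of Aplnr and is made by tip cells, had 50.6, 54.0 and 47.2 CPM in the anterior and 46.9, 40.8 and 46.2 CPM in the posterior libraries. The lowest anterior library lay just above the highest posterior one, so that the libraries did not overlap in CPM. Set against the pan-endothelial list they did overlap, at 50.6 to 61.7 in anterior and 41.6 to 61.2 in posterior libraries. The log2 fold change of Apln was -0.18 (SE 0.10, adjusted p = 0.305). Esm1, the other tip cell gene, had 1.06, 0.945 and 4.24 CPM in the anterior and 2.32, 2.60 and 3.22 CPM in the posterior libraries. Anterior replicate 3 was the highest of the 6 and the other anterior libraries the lowest. Its log2 fold change of 0.41 (SE 0.56, adjusted p = 0.661) became 1.43 without anterior replicate 3 and was still not called.

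Of the lymphatic genes, Flt4 was higher in the posterior palate, whereas Prox1 and Lyve1 did not pass the test. Flt4 encodes VEGFR-3, the receptor for Vegfc on lymphatic endothelium and on sprouting blood vessels. Its gene (ENSMUSG00000020357.4) lies on the plus strand at chr11:49609263-49652739 of GRCm38. It had 24.1, 23.0 and 27.6 CPM in anterior replicates 1, 2 and 3 and 34.1, 53.0 and 52.2 CPM in posterior replicates 1, 2 and 3. All posterior libraries were above the anterior ones, with replicate 1 nearest to them. The level of Flt4 was 1.87-fold higher in the posterior palate (log2 fold change 0.90, SE 0.18, adjusted p = 0.027). With the library-group term the log2 fold change was 0.46 and the call was lost (adjusted p = 0.0619). It was also lost without any 1 of the anterior replicates 1, 2 and 3 (adjusted p = 0.123, 0.132 and 0.0741) or without posterior replicate 2 (0.113) or 3 (0.0953), with a log2 fold change from 0.80 to 1.09 over all such fits. Set against 1000 CPM of the pan-endothelial list, Flt4 was at 28.1 ± 1.72 in anterior and 49.0 ± 4.80 in posterior libraries (SD, n = 3 each), again without overlap.

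Prox1, the transcription factor gene that specifies lymphatic identity and that is also expressed in muscle and nerve cells, had 20.3, 22.0 and 16.1 CPM in the anterior and 14.3, 21.0 and 14.7 CPM in the posterior libraries. Posterior replicate 2 lay within the anterior range and the other posterior libraries below it. Prox1 had a log2 fold change of -0.22 (SE 0.19, adjusted p = 0.485). Lyve1, a hyaluronan receptor gene of lymphatic vessels and of some macrophages, had 3.11, 2.47 and 1.64 CPM in the anterior and 3.07, 4.12 and 6.10 CPM in the posterior libraries. Posterior replicate 1 was just under the highest anterior library and the other posterior libraries above it. Its log2 fold change was 0.87 (SE 0.34, adjusted p = 0.168). It was 1.08 without posterior replicate 1 (adjusted p = 0.0203), 0.57 without posterior replicate 3 (adjusted p = 0.466) and 0.34 with the library-group term. None of 8 macrophage markers was called by edgeR's quasi-likelihood test. An unadjusted p under 0.05 was found for 4 of them, beside 3946 of all 15673 genes tested. Their summed level was 123 to 151 CPM in anterior and 129 to 182 CPM in posterior libraries. Their median log2 fold change was -0.10, and 5 of the 8 were negative, among them Lyz2 (-0.49), Tyrobp (-0.51) and Cd68 (-0.55), whose anterior libraries were all above the posterior ones. In the other direction Mrc1, which tissue macrophages often share with Lyve1, had 27.9, 28.4 and 20.3 CPM in the anterior and 30.9, 56.5 and 71.7 CPM in the posterior libraries (log2 fold change 1.05, SE 0.29, adjusted p = 0.0784). DESeq2 called Mrc1 (adjusted p = 0.00607), as did edgeR without a filter on counts (adjusted p = 0.0062). Without posterior replicate 1, 4 of the 8 markers were called, in a fit that called 7119 genes in all. Within the posterior palate Mrc1 and Lyve1 were thus lowest in replicate 1 and highest in replicate 3, and the part of macrophages in the level of Lyve1 was not tested.

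Genes of lymphatic growth outside the 39 were also called. Of 5 further lymphatic genes 3 were called, all higher in the posterior palate (Foxc2, Ccl21a and Reln), and of 13 vascular ligand and processing genes 2 were called, also higher there (Vegfc and Ccbe1). Of all genes tested, 7.46% were called and 4.87% were called higher in the posterior palate. Vegfc, the ligand of Flt4, had 15.0, 14.2 and 15.2 CPM in the anterior and 29.4, 24.6 and 30.8 CPM in the posterior libraries. The libraries were tight within each region and far apart between them (log2 fold change 0.93, SE 0.13, adjusted p = 0.00484). Ccbe1, which is needed for the processing of Vegfc, had 3.57, 3.56 and 4.15 CPM in the anterior and 8.53, 14.2 and 14.0 CPM in the posterior libraries (log2 fold change 1.70, SE 0.24, adjusted p = 0.00547). Both stayed called without any 1 library and with the library-group term. Ligand and receptor were thus both called higher in the posterior palate, although the call of the receptor depended on single libraries.

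Foxc2, a transcription factor gene of lymphatic valves and also of mesenchyme, had 2.05, 2.62 and 1.90 CPM in the anterior and 15.6, 18.9 and 13.2 CPM in the posterior libraries. It was 7.19-fold higher in the posterior palate (log2 fold change 2.85, SE 0.21, adjusted p = 0.000461). Ccl21a, a chemokine gene of lymphatic endothelium, had 6.90, 3.85 and 4.50 CPM in the anterior and 24.1, 33.7 and 26.3 CPM in the posterior libraries. Its log2 fold change was 2.46 (SE 0.24, adjusted p = 0.00134), but Ccl21a has near-identical copies in the mouse genome, and the reads of these copies may not have been told apart. Reln, made by lymphatic endothelium and by neurons, had 2.05, 1.60 and 3.03 CPM in the anterior and 4.12, 17.5 and 15.6 CPM in the posterior libraries. Posterior replicate 1 was close to the anterior libraries, and Reln (log2 fold change 2.49, SE 0.54, adjusted p = 0.0348) was not called by limma-voom (2.29, adjusted p = 0.119), with the library-group term (0.90, adjusted p = 0.162) or without any 1 library other than posterior replicate 1. The summed level of 5 neuronal markers was 33.5 to 39.4 CPM in the anterior libraries and 38.5, 239 and 16.4 CPM in posterior replicates 1, 2 and 3. Reln was high in posterior replicate 3 too, where that sum was the lowest of all 6 libraries. The part of neurons in the level of Reln was not tested.

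**Figure D4:**
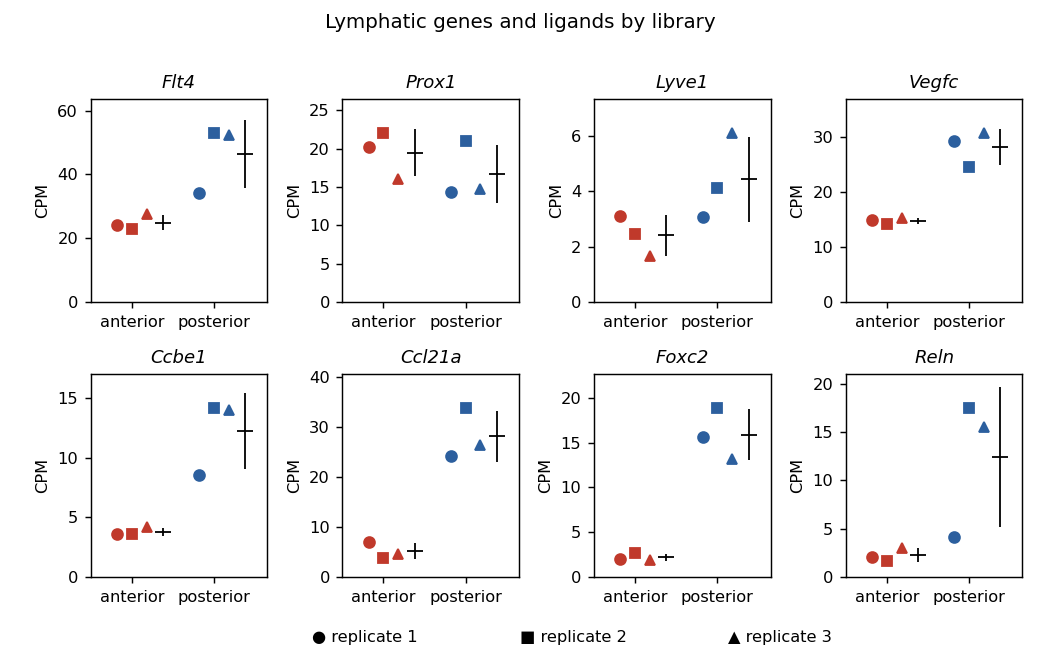
CPM of the lymphatic genes Flt4, Prox1 and Lyve1, of Vegfc and Ccbe1, and of the further lymphatic genes Ccl21a, Foxc2 and Reln in each library (vertical axes from 0, red anterior, blue posterior, a shape per replicate number), with the mean and SD of 3 libraries beside the points. The posterior points are above the anterior ones for Flt4, Vegfc, Ccbe1, Ccl21a, Foxc2 and Reln, and overlap them for Prox1 and Lyve1.

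Mural genes gave the 4 largest log2 fold changes of the 39 genes by size, and in both directions. Of the 7 genes 4 were called (57.1%, beside 7.46% of all genes tested). Rgs5 and Kcnj8 were called as higher in the anterior palate and Acta2 and Tagln as higher in the posterior palate. Rgs5, Kcnj8, Abcc9 and Cspg4 are known from pericytes, and Acta2, Tagln and Myh11 from contractile smooth muscle. The summed level of the 7 genes was 193, 182 and 253 CPM in the anterior and 360, 301 and 315 CPM in the posterior libraries. In it, Acta2 had means of 53.2 CPM in anterior and 126 CPM in posterior libraries, and Tagln 32.8 and 103 CPM. The sum therefore does not give the direction of the other mural genes.

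Rgs5, which encodes a regulator of G protein signalling and is a widely used pericyte marker, had 32.3, 33.2 and 77.4 CPM in anterior replicates 1, 2 and 3 and 9.96, 13.2 and 11.5 CPM in posterior replicates 1, 2 and 3. Every anterior library was far above every posterior one, and anterior replicate 3 far above the other anterior libraries. Rgs5 (ENSMUSG00000026678.11, chr1:169655501-169695813, plus strand) was 4.12-fold higher in the anterior palate (log2 fold change -2.04, SE 0.36, adjusted p = 0.0147). Without anterior replicate 3 its log2 fold change was -1.51 (adjusted p = 0.00649). The call was lost without posterior replicate 2 (adjusted p = 0.0597) or 3 (adjusted p = 0.0615). Set against 1000 CPM of the pan-endothelial list, Rgs5 was at 38.3, 37.8 and 83.0 in the anterior and 13.0, 13.5 and 10.6 in the posterior libraries, so it also differed in relation to the endothelium.

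Kcnj8 and Abcc9 are neighbours on chromosome 6 and encode the Kir6.1 and SUR2 subunits of the ATP-sensitive potassium channel of pericytes. Kcnj8 (ENSMUSG00000030247.10, chr6:142564837-142571614, minus strand) had 5.46, 5.16 and 7.53 CPM in the anterior and 1.05, 1.59 and 2.81 CPM in the posterior libraries, which rest on 72, 71 and 87 against 14, 22 and 41 counts. All anterior libraries were above all posterior ones. The gene was 3.30-fold higher in the anterior palate (log2 fold change -1.72, SE 0.36, adjusted p = 0.0312). Its call was lost without anterior replicate 1, 2 or 3 (adjusted p = 0.0953, 0.089 and 0.113) or posterior replicate 2 (0.127), with a log2 fold change from -2.18 to -1.44 over all such fits. Abcc9 (ENSMUSG00000030249.16, chr6:142587862-142702315, minus strand) had 12.9, 13.7 and 16.8 CPM in the anterior and 5.99, 19.3 and 20.8 CPM in the posterior libraries. Posterior replicate 1 was below and posterior replicates 2 and 3 above every anterior library, whereas Kcnj8 was lower in every posterior library. Both genes were lowest in posterior replicate 1. The log2 difference between the mean of posterior replicates 2 and 3 and replicate 1 was 1.66 for Abcc9 and 0.76 for Kcnj8. The log2 fold change of Abcc9 was 0.09 (SE 0.41, adjusted p = 0.898), which turned to -1.27 with the library-group term (adjusted p = 0.00925). The merged exon length was 2548 bases for Kcnj8 and 8373 bases for Abcc9.

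Cspg4, which encodes the NG2 proteoglycan of pericytes and of some mesenchymal cells, had 49.3, 45.8 and 49.4 CPM in the anterior and 32.6, 55.9 and 83.5 CPM in the posterior libraries. The anterior libraries were nearly equal, and the posterior ones lay on both sides of them. Its log2 fold change was 0.25 (SE 0.29, adjusted p = 0.601), and -0.56 with the library-group term (adjusted p = 0.169). Without posterior replicate 1 both Abcc9 (0.48, adjusted p = 0.0229) and Cspg4 (0.54, adjusted p = 0.0201) were called as higher in the posterior palate.

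Acta2, the gene of smooth muscle alpha-actin, had 49.2, 48.6 and 61.8 CPM in anterior replicates 1, 2 and 3 and 148, 101 and 129 CPM in posterior replicates 1, 2 and 3. The lowest posterior library was well above the highest anterior one. Acta2 (ENSMUSG00000035783.10, chr19:34241090-34255590, minus strand) was 2.37-fold higher in the posterior palate (log2 fold change 1.24, SE 0.17, adjusted p = 0.00475). It was the only one of the 5 genes called that remained called without any 1 library, with an adjusted p of at most 0.0352. In these fits its log2 fold change was 1.12 to 1.38, and it was 1.48 with the library-group term. Actin genes are alike in their coding sequence, and how the authors' counting treated reads shared between them is not given in the sources used here.

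Tagln, which encodes the actin-binding protein SM22, had 36.5, 30.0 and 31.9 CPM in the anterior and 151, 102 and 57.7 CPM in the posterior libraries. The anterior libraries were close together, and the posterior ones, all above them, differed widely. Tagln (ENSMUSG00000032085.6, chr9:45929619-45936058, minus strand) was 3.15-fold higher in the posterior palate (log2 fold change 1.66, SE 0.31, adjusted p = 0.0205). The call was lost without anterior replicate 1, 2 or 3 (adjusted p = 0.0785, 0.104 and 0.0916) or posterior replicate 2 (0.0725), with a log2 fold change from 1.29 to 1.95 over all such fits. Tagln is overlapped by an antisense gene and by the end of Pcsk7 on the other strand, and in the unstranded counts it had only 5 to 15 counts in a library, too few to be tested there. Myh11, the smooth muscle myosin heavy chain gene, had 7.36, 6.03 and 7.79 CPM in the anterior and 12.1, 7.88 and 10.2 CPM in the posterior libraries. The lowest posterior library was only just above the highest anterior one. Myh11 had a log2 fold change of 0.51 (SE 0.20, adjusted p = 0.174).

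Acta2 and Tagln are also expressed in developing skeletal muscle. The skeletal muscle markers given above differed between the regions by more than any mural gene, with a median log2 fold change of 5.96. Des, which belongs to both the skeletal muscle and the further mural lists, had 4.02, 3.71 and 2.77 CPM in the anterior and 52.3, 38.2 and 44.6 CPM in the posterior libraries (log2 fold change 3.68, SE 0.19, adjusted p = 0.00014). The part of skeletal muscle in the levels of Acta2 and Tagln was not tested.

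The sequences before the start of the 2 genes higher in the anterior palate and the CArG boxes before the start of Acta2 are shown because these genes moved in opposite directions within 1 class. A CArG box is the binding motif of serum response factor, which drives contractile genes in smooth and skeletal muscle. It was searched as CC, 6 inner bases of which at most 1 was C or G, and GG, a pattern that reads the same on both strands. Sequences are from RefSeq (GRCm38.p6), 5′ to 3′ on the strand of the gene, and cover the 250 bases before the start of transcription, with CArG boxes in capitals. The window of Acta2 held 2 matches, at chr19:34255438-34255467 and chr19:34255388-34255417 with 10 bases on either side, both within a longer first exon that GENCODE M21 annotates.
Acta2, match starting 84 bases before the start: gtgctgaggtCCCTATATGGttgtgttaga
Acta2, match starting 34 bases before the start: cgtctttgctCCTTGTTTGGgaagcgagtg
Rgs5, chr1:169655251-169655500, plus strand: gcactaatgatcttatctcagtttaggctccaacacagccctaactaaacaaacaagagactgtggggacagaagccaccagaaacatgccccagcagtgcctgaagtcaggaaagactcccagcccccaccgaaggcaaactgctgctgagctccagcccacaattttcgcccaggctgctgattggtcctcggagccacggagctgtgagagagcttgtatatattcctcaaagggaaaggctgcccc
Kcnj8, chr6:142571615-142571864, minus strand: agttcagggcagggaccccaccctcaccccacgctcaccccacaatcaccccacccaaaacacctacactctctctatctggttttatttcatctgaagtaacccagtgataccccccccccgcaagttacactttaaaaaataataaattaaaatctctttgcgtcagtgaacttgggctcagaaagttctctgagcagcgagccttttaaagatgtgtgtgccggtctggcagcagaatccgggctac

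Neither the Rgs5 nor the Kcnj8 window held a CArG box, which says only that these letters are not in these windows. The motif was found in 8.59% of the 32851 promoters of the same length. Of the 39 vessel genes 24 had a promoter in the table, and 4 of these held a match (Acta2, Egfl7, Eng and Kdr). Of these 4, Acta2 was the 1 called. The promoters of Tagln and Myh11 were not analysed here. The core of ETS factor sites, CGGAAG on either strand, was found in 13.6% of all promoters and before 1 vessel gene, Tie1. The core of the Notch effector RBPJ, GTGGGAA on either strand, was found in 5.42% of all promoters and before 2 vessel genes, Kdr and Tie1. These matches are descriptions of sequence and were not tied to the levels.

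**Figure D5:**
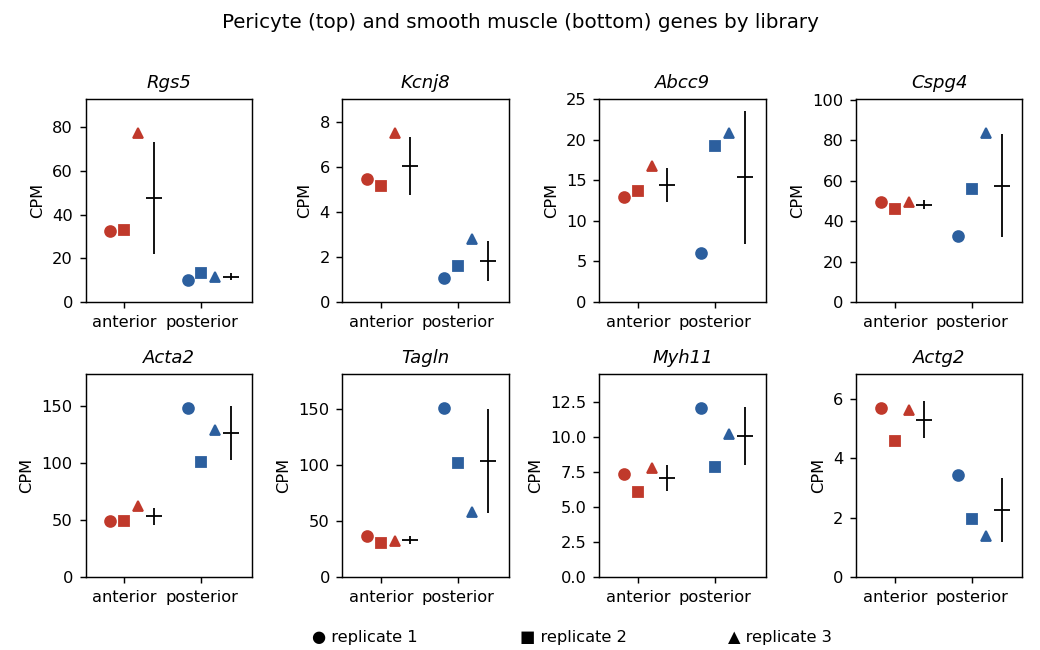
CPM of pericyte genes (top row) and smooth muscle genes (bottom row) in each library (vertical axes from 0, red anterior, blue posterior, a shape per replicate number), with the mean and SD of 3 libraries beside the points. The anterior points are above the posterior ones for Rgs5, Kcnj8 and Actg2, and the posterior ones above for Acta2, Tagln and Myh11.

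Among the further mural genes 11 of 16 were tested and 3 called (27.3% of those tested, beside 7.46% of all genes tested). The libraries did not overlap for 6 of the 11 (54.5%, beside 28.0% of all genes tested). Of these, 4 were higher in the posterior and 2 in the anterior palate. Besides Des, Tbx18, a transcription factor gene of mural cells and of mesenchyme, was higher in the posterior palate, with 4.55, 6.11 and 5.02 CPM in the anterior and 12.1, 11.3 and 10.3 CPM in the posterior libraries (log2 fold change 1.10, SE 0.17, adjusted p = 0.0089). Heyl, a Notch target gene of mural cells, was higher in the anterior palate, with 15.9, 20.2 and 20.0 CPM in the anterior and 9.51, 10.9 and 9.87 CPM in the posterior libraries (log2 fold change -0.89, SE 0.15, adjusted p = 0.011). The libraries of neither gene overlapped. The call of Heyl was lost without anterior replicate 2 (adjusted p = 0.0686) or 3 (0.0533), and that of Tbx18 without anterior replicate 1 (0.0544). Pdgfrb, the receptor gene by which mural cells are recruited and which mesenchyme also expresses, had 225 CPM in anterior and 213 CPM in posterior libraries on average (log2 fold change -0.08, adjusted p = 0.804).

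Of 3 further smooth muscle genes, Actg2 did not pass the quasi-likelihood test, and Myocd and Cnn1 had too few counts to be tested. Actg2, the gene of enteric smooth muscle actin, had 5.69, 4.58 and 5.62 CPM in the anterior and 3.44, 1.95 and 1.37 CPM in the posterior libraries. The anterior libraries were all above the posterior ones (log2 fold change -1.23, SE 0.34, adjusted p = 0.0752), and DESeq2 called Actg2 (adjusted p = 0.0189). Myocd, the coactivator of serum response factor in smooth muscle, had 5, 6 and 8 counts in the anterior and 0, 1 and 6 counts in the posterior libraries. Calponin 1, the product of Cnn1, is another protein of contractile smooth muscle, and Cnn1 had 5, 5 and 2 counts in the anterior and 5, 10 and 5 counts in the posterior libraries. Actg2, Myocd and Cnn1 were chosen after their values were seen.

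The ligand by which mural cells signal to the endothelial receptor Tek is angiopoietin 1, and its gene Angpt1 was also singled out after its values were seen. It had 143, 152 and 106 CPM in the anterior and 42.4, 70.6 and 83.2 CPM in the posterior libraries. Every anterior library was above every posterior one. The log2 fold change of Angpt1 was -1.03 (SE 0.25, adjusted p = 0.0503), just outside the threshold, and DESeq2 called it (adjusted p = 0.000988). Its antagonist Angpt2 (log2 fold change -0.03, adjusted p = 0.968) and the receptor Tek itself did not pass the test. The ligand gene Vegfa (0.31, adjusted p = 0.393) and Pdgfb, the ligand of Pdgfrb (-0.02, adjusted p = 0.944), did not pass it either. Over all 57 further vessel genes tested, 11 were called (19.3%), 8 higher in the posterior and 3 in the anterior palate, beside 7.46% of all genes tested, with 4.87% higher in the posterior and 2.59% in the anterior palate. The median log2 fold change of the 57 genes was 0.14.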

How the data were processed

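Counts of reads per gene from the 6 bulk RNA-seq libraries were analysed. The authors deposited unnormalized counts per Ensembl gene, unstranded and for each strand, in the layout of STAR, whereas their processing notes name HISAT2, StringTie, DESeq2 1.30.1 and mm10; the annotation release is not given in the sources used here. The reverse-stranded counts were used, which were 18.95 to 23.1 times those of the other strand. Reads not assigned to a gene were left out. The chi-square per gene between replicates was 3.43 to 67.3, above sampling noise.

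Genes were kept if 3 or more libraries had 10 or more counts. They were fitted in R 4.3.3 with the quasi-likelihood test of edgeR 4.0.16 on TMM-scaled counts, with region as the only term, and called at a Benjamini-Hochberg adjusted p under 0.05 over all genes tested. Standard errors are the log2 fold change over the square root of the F statistic. CPM use TMM-scaled library sizes. Symbols, positions and merged exon lengths are from GENCODE M21 (GRCm38). The fits were tested on simulated data.

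The members and lists were chosen with earlier results of these data known. Named with all values are genes called, those without overlap and the 2 of highest level per kb in each class, and of the further genes those called, at most 4 per list. Kdr, Pecam1, Vwf, Lyve1, Abcc9, Cspg4 and the marker Mrc1 are also given by library and were chosen after their values were seen. The alternatives were DESeq2 1.42.0, limma-voom (limma 3.58.1), RLE scaling, library size only, unstranded counts, 2 other count filters (none, or 10 counts in each of the 6 libraries), a block for the replicate number, the library-group term and leaving out each library. The limit of 3 counts covers counting error only.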

Additional observations from a re-analysis of the deposited data

How the results depend on the processing

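Across settings with all libraries, 430 of 467 values kept their direction and side of the threshold, 3 lost and 15 gained a call, and 19 changed sign, in 15 genes. Without 1 replicate, 253 of 312 kept both, 23 lost and 13 gained a call, and 23 changed sign, in 12 genes. The 5 vessel genes called became 8 by DESeq2, 8 without a filter on counts and 1 to 15 without 1 replicate. Those higher in the posterior palate went from 3 to 5 in both fits and to 1 to 12 without 1 replicate, and those higher in the anterior palate from 2 to 5 with the library-group term and 0 to 3 without 1 replicate. Further vessel genes called went from 11 to 18 by DESeq2, to 18 with no filter, to 18 with the library-group term and to 9 to 29 without 1 replicate. All genes called went from 1169 to 1978 by DESeq2, to 2162 with no filter and to 498 to 7119 without 1 replicate. The upper ends (15, 12, 3, 29 and 7119) are those without posterior replicate 1, and the causes were not tested.

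The median log2 fold change was 0.01 for pan-endothelial, 0.15 for arterial, 0.04 for venous, 0.87 for lymphatic, 0.11 for tip cell and 0.25 for mural genes. With the library-group term it was -0.15 for pan-endothelial, 0.34 for lymphatic and -0.56 for mural genes. Without 1 replicate it was -0.042 to 0.11 for pan-endothelial, -0.068 to 0.30 for arterial, -0.046 to 0.10 for venous, 0.57 to 1.08 for lymphatic, -0.050 to 0.60 for tip cell and -0.12 to 0.48 for mural genes. The library-group term also changed the sign of Pecam1 (-0.12), Cdh5 (-0.46), Flt1 (-0.32), Tek (-0.32), Tie1 (-0.30), Erg (-0.16), Sox18 (0.019), Robo4 (-0.032), Notch4 (-0.072), Cldn5 (0.0032), Ramp2 (0.24), Gja4 (0.068), Abcc9 (-1.27) and Cspg4 (-0.56). Library size only changed that of Flt1 (-0.016) and Robo4 (-0.037), unstranded counts that of Sox17 (0.028), and limma-voom that of Abcc9 (-0.078). Without 1 replicate the log2 fold change was -0.18 to 0.19 for Flt1, -0.031 to 0.076 for Robo4, -0.017 to 0.22 for Erg, -0.17 to 0.066 for Ramp2, -0.083 to 0.11 for Sox17, -0.13 to 0.054 for Eng, -0.16 to 0.11 for Mmrn2, -0.14 to 0.069 for Gja4, -0.93 to 0.20 for Vwf, -0.18 to 0.48 for Abcc9, -0.066 to 0.54 for Gja5 and -0.12 to 0.54 for Cspg4.

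With the replicate number as a replicate block 829 genes and 5 vessel genes were called, no vessel gene gained or lost its call, and the log2 fold change of Abcc9 was -0.057. For same-numbered libraries the correlations of the deviations were -0.06, 0.01 and 0.03, and for other pairs they were -0.14 to 0.09. Pairing by number is thus not visible, but these values cannot decide it, because posterior replicate 1 stood far from replicates 2 and 3. The chi-square per gene was 52.6 and 67.3 for these 2 pairs, and 3.43 to 6.64 for the anterior pairs. At this depth the vessel genes with the fewest counts over the 6 libraries, Esm1, Lyve1 and Kcnj8, rest on 13 to 89 counts in a library.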
